A study of Mus musculus with 9 samples.

Results

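The ovaries of mice given cyclophosphamide together with hyperbaric oxygen were compared with those of mice given cyclophosphamide alone. The 3 libraries labelled HBOT and the 3 labelled CTX were used, of 9 libraries in the series, and 13122 of the 22544 entries of the table reached 1 FPKM in at least 3 of these 6 libraries. These 13122 genes were compared. Per the design text, the HBOT group received CTX plus HBOT, so both groups carry CTX, the usual abbreviation of cyclophosphamide, and HBOT that of hyperbaric oxygen therapy. The NC group, 3 libraries with no treatment named, is given beside the results as a reference level. The labels give the tissue, ovary, and the treatment. No source used here gives strain, age, dose, oxygen pressure or schedule. Whether each replicate is an animal of its own is not stated, so that p-values cover the spread among these libraries, which may be technical.

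Cyclophosphamide is a prodrug whose active form alkylates DNA and crosslinks its strands, and it is known for depleting ovarian follicles. Hyperbaric oxygen is breathed at a pressure above that of the atmosphere and raises the oxygen dissolved in plasma. The title of the series places the study in ovarian injury by CTX, and setting HBOT beside CTX asks which transcripts differ when oxygen is added to the drug. The ovary holds oocytes, the granulosa and theca cells around them, and a stroma of fibroblasts, smooth muscle, vessels and immune cells. In such a stroma, transforming growth factor beta is known as an inducer of collagens, of other matrix proteins and of the inhibitors that slow their breakdown.

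FPKM is the number of sequenced fragments of a gene scaled to transcript length and to the total of the library. A fold change is the difference of mean log2(FPKM + 1), HBOT minus CTX, which understates the change of genes with low FPKM. Values of a group are given in the order of replicates 1, 2 and 3. FPKM summed to between 399652 and 420058 in the 6 libraries, and read depth is unknown because FPKM keeps no counts. Defining transcripts of the labelled tissue were present in every library: the oocyte growth factor Gdf9 was at 28.3 to 83.7 FPKM and the granulosa hormone Amh at 73.2 to 414. HBOT 2 (the replicates are named by group and number from here on) stood apart. Its highest rank correlation with another library, across genes, was 0.9058, against at least 0.9763 for each of the others. By more than 1 log2 unit, 519 of its genes lay above and 1098 below the mean of the other 5 HBOT and CTX libraries, against 61 to 212 genes in 1 direction in each of the others. Transcripts of ovulating follicles were high in HBOT 2 alone. CTX 1 carried transcripts of fat cells, of which Adipoq and Cidec were at 0 FPKM in the other 5 libraries. Adipoq, the adipocyte hormone adiponectin, was at 5.24 FPKM in CTX 1 and Cidec, a lipid droplet protein, at 3.33. Of other adipocyte genes, Cfd was highest in CTX 1, at 39.8 FPKM, but Retn was at 3.60 there and 10.2 in HBOT 2. The adipocyte list summed to 125 FPKM in CTX 1 and 135 in CTX 3, so not all fat transcripts were confined to CTX 1. The counts and medians of lists are therefore given with all libraries and again without HBOT 2. Of 115 tested genes given with their values, 110 had a log2 fold change of the same sign without HBOT 2, and Bax, Foxo3, Fshr, Pcna and Star did not. Many of the 115 were chosen by non-overlapping libraries or a small p, which favours a kept sign. Of all genes, 29.4% changed sign. In parentheses, a pair of values is the log2 fold change with all libraries and then without HBOT 2. Some refits without CTX 1, or without both HBOT 2 and CTX 1, are also given. What part these 2 libraries play in the other results was not tested beyond that. In bulk tissue, fewer cells of a type and less RNA per cell cannot be told apart.

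Of the 13122 genes, 0 passed an adjusted p of 0.05 (limma, Benjamini-Hochberg over all genes), a share of 0%. The smallest adjusted p was 0.176 with all libraries and 0.126 without HBOT 2, again with 0 genes past the threshold. An unadjusted p under 0.05 was reached by 784 genes (5.97%), 310 of them higher (2.36%) and 474 lower (3.61%) in HBOT. Without HBOT 2 there were 687 such genes (5.24%), 400 higher (3.05%) and 287 lower (2.19%). Of these, 402 genes reached it in both fits, all in the same direction, which is 51.3% of the first set and 58.5% of the second. The libraries of the groups did not overlap for 1330 genes (10.1%): HBOT lay wholly above CTX for 491 (3.74%) and wholly below for 839 (6.39%). Without HBOT 2, with 2 libraries against 3, there were 2452 (18.7%), 1204 above (9.18%) and 1248 below (9.51%). These shares of all genes, with the 38.4% and, without HBOT 2, 49.3% that had a difference above 0, are the background for each list. With no group difference, libraries would on average not overlap for a share of 0.1 of genes at 3 against 3. At 3 against 2 that share is 0.2. Of the 1330 genes, 37 could not overlap, since all libraries of 1 group were under 1 FPKM and the gene was tested only through the other. Ramp1 and Asgr1, with 1 CTX library above 1 FPKM, are not among the 37. They too needed their HBOT libraries to pass the filter, which favours non-overlap. When limma estimated a weight for each library, 5 loci passed at an adjusted p of 0.0431: Tgfb1, Sema3d, Ramp1 and Plekhg4, all higher in HBOT, and the unannotated locus MSTRG.28856.1, lower. With such weights and without HBOT 2, a fit chosen after seeing the data, 0 passed (smallest adjusted p 0.0819, with 1113 genes at an unadjusted p under 0.05), so that these calls were lost without HBOT 2. Since 0 genes passed with equal weights, "higher" and "lower" below describe these libraries, and no gene or group is called changed.

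The balance of directions moved with the scaling and with HBOT 2. With FPKM as deposited, 38.38% of genes had a difference above 0 and the median was -0.067. After median-of-ratios scaling, the share was 50.24%, and 431 genes were higher and 383 lower at an unadjusted p under 0.05. Quantile normalization gave 426 and 418. Without HBOT 2 the share was 49.28% and the median -0.0026 on the deposited scale. Leaving HBOT 2 out turned the sign of the fitted difference for 3858 genes (29.4%).

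Ranked by p, the 12 leading genes with higher levels in HBOT and non-overlapping libraries included the ligand Tgfb1, the protease inhibitor Timp1, the matrix gene Tnc and the receptor partner Ramp1. Tgfb1 (ENSMUSG00000002603), which encodes the ligand transforming growth factor beta 1, was at 13.1, 15.7 and 15.3 FPKM in CTX and 30.6, 37.2 and 28.9 in HBOT. The 3 HBOT libraries sat at about the same level, all above the CTX libraries, and the NC libraries were at 23.2, 28.0 and 29.1. The log2 fold change was 1.08 (SE 0.14, adjusted p = 0.215 in limma), and 0.97 (SE 0.12, adjusted p = 0.126) without HBOT 2. Timp1 (ENSMUSG00000001131), an inhibitor of matrix metalloproteinases, was at 28.1, 45.0 and 69.8 FPKM in CTX, 193, 158 and 208 in HBOT and 125, 102 and 227 in NC. Its lowest HBOT library was above its highest CTX library, with a log2 fold change of 2.03 (SE 0.36, limma adjusted p = 0.555) that was 2.14 without HBOT 2. Tnc (ENSMUSG00000028364), the matrix glycoprotein tenascin C, was at 27.8, 18.3 and 12.4 FPKM in CTX, 38.9, 84.0 and 66.5 in HBOT and 76.7, 83.4 and 80.6 in NC (1.64; 1.41 without HBOT 2).

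Ccn2 (ENSMUSG00000019997), connective tissue growth factor, was at 35.1, 21.9 and 21.6 FPKM in CTX and 71.3, 46.4 and 48.6 in HBOT. The NC libraries, at 29.3, 24.2 and 31.0, lay with CTX for this gene, whereas those of Tnc lay with HBOT. Loxl2, a lysyl oxidase that crosslinks collagen, was at 16.6, 22.8 and 17.9 FPKM in CTX and 36.4, 36.0 and 26.9 in HBOT. Col7a1, the collagen of anchoring fibrils, was at 1.18, 1.36 and 1.01 FPKM in CTX and 3.96, 3.16 and 2.40 in HBOT, and at 1.10, 1.20 and 1.65 in NC. Creb3l1, a membrane-bound transcription factor known to turn on collagen genes, was at 17.6, 23.3 and 16.4 FPKM in CTX and 28.0, 32.5 and 34.2 in HBOT. Log2 fold changes of these 4 genes ran from 0.71 to 1.06, with limma adjusted p from 0.651 to 0.713, and without HBOT 2 from 0.68 to 1.17.

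Several of the 12 were transcripts at low levels. Sema3d, a secreted semaphorin that guides axons and endothelial cells, was at 1.47, 1.14 and 2.47 FPKM in CTX and 10.9, 4.998 and 9.40 in HBOT, with NC at 2.94, 4.67 and 5.54. Ramp1 (ENSMUSG00000034353), the partner that turns the calcitonin receptor-like receptor into a receptor for the neuropeptide CGRP, was at 0.870, 0.730 and 1.01 FPKM in CTX, 9.04, 2.80 and 5.38 in HBOT and 1.05, 1.48 and 1.77 in NC. HBOT 2 was the lowest of the HBOT libraries for both genes and still above every CTX library. Log2 fold changes were 1.78 (SE 0.31) for Sema3d and 1.74 (SE 0.31) for Ramp1, both at a limma adjusted p of 0.555. Without HBOT 2 they were 2.08 and 2.10, both at 0.126. Of the 7 genes tested in the adrenomedullin and RAMP list, to which Ramp1 belongs, no other had non-overlapping libraries. The receptor Calcrl itself, named after its values were seen, was at 3.07, 3.06 and 2.26 FPKM in CTX and 3.27, 2.03 and 2.27 in HBOT. Asgr1, a lectin receptor best known in liver, was at 1.21, 0.643 and 0.603 FPKM in CTX and 3.58, 2.71 and 5.33 in HBOT, and the membrane protein gene Lhfp at 13.5, 15.6 and 11.2 and 24.3, 27.1 and 22.6. Nupr1, a stress-induced chromatin protein, was at 34.3, 59.9 and 21.4 FPKM in CTX, 79.3, 106 and 151 in HBOT and 176, 203 and 196 in NC.

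**Figure D1:**
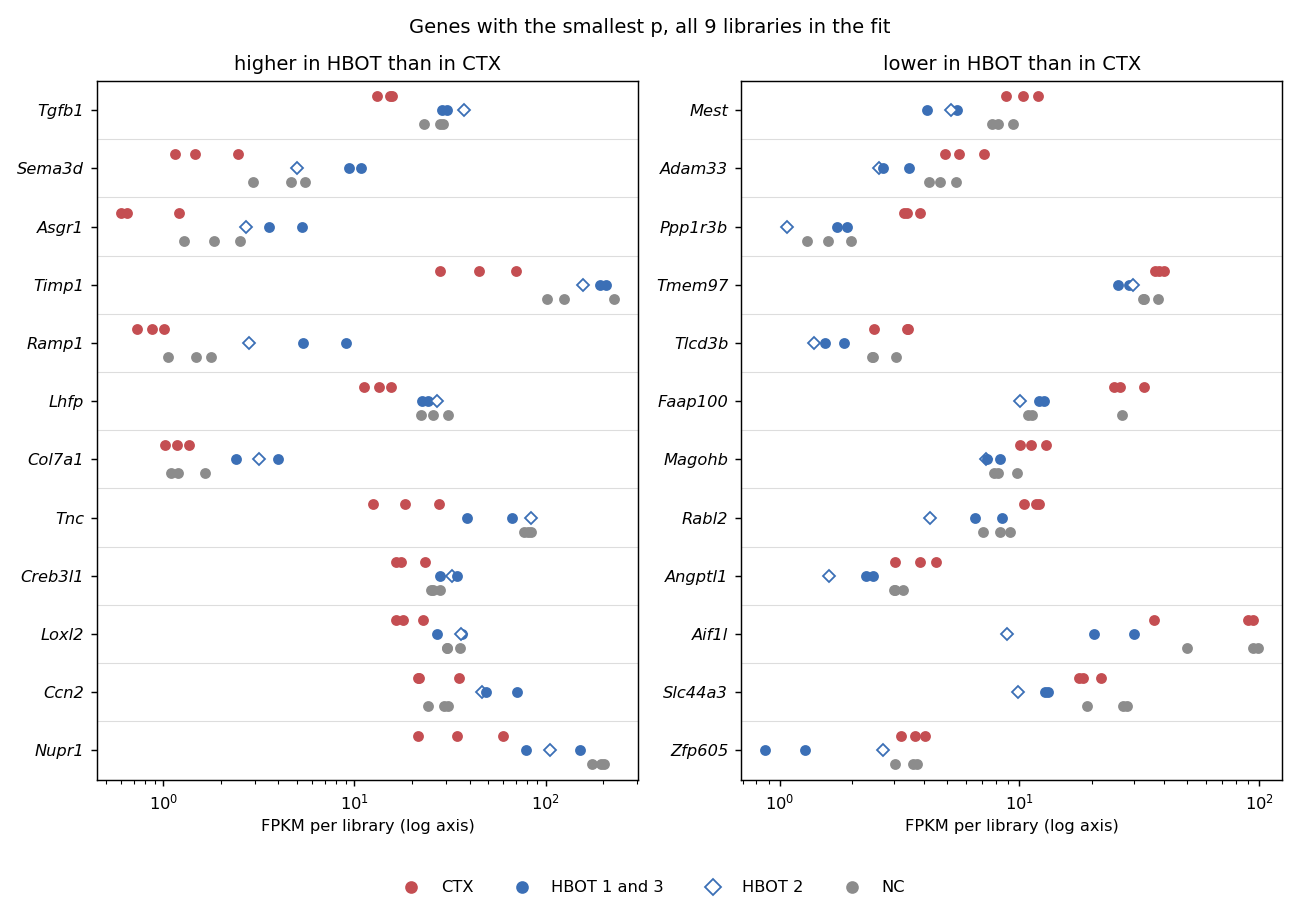
FPKM on a log axis in each library for the 12 genes per direction with the smallest p in the fit of all libraries; red points are CTX, blue points HBOT 1 and 3, open diamonds HBOT 2 and grey points NC, with 3 libraries in each group. For each of the 24 genes the HBOT and CTX libraries do not overlap, as the rule that chose them required; Timp1 runs from 28.1 to 69.8 FPKM in CTX and from 158 to 208 in HBOT.

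In the other direction, too, 12 genes were taken. Mest (ENSMUSG00000051855), a paternally expressed imprinted gene, was at 8.80, 12.003 and 10.4 FPKM in CTX, 5.49, 5.16 and 4.13 in HBOT and 7.69, 8.17 and 9.37 in NC. All 3 HBOT libraries were below both other groups for Mest, with a log2 fold change of -0.94 (SE 0.15, limma adjusted p = 0.555), and -0.97 (adjusted p = 0.236) without HBOT 2. Tmem97, a sterol-regulated membrane protein known as the sigma-2 receptor, was at 36.8, 38.3 and 40.0 FPKM in CTX and 28.7, 29.7 and 25.7 in HBOT. Faap100, a subunit of the Fanconi anaemia core complex that acts on crosslinked DNA, was at 33.2, 26.2 and 24.8 FPKM in CTX and 12.7, 10.04 and 12.1 in HBOT (-1.20; -1.11 without HBOT 2). The NC libraries for Faap100, at 10.9, 26.8 and 11.3, were split, with 1 at the CTX level and the other two at the HBOT level. Adam33, a metalloprotease of stroma and smooth muscle, was at 4.87, 5.62 and 7.09 FPKM in CTX and 3.46, 2.59 and 2.70 in HBOT. Ppp1r3b, which brings a phosphatase to glycogen, was at 3.86, 3.41 and 3.31 and 1.92, 1.08 and 1.73. Aif1l was at 36.3, 94.5 and 90.2 FPKM in CTX and 30.0, 8.91 and 20.4 in HBOT, so that CTX 1 lay close to HBOT 1, with the largest log2 fold change of the 12 (-1.88 and, without HBOT 2, -1.42). Zfp605, a zinc finger gene, had its highest HBOT library in HBOT 2, at 4.04, 3.21 and 3.66 FPKM in CTX and 0.873, 2.70 and 1.28 in HBOT. Without HBOT 2 its limma adjusted p was 0.126, at a log2 fold change of -1.16. Kcnk3, a potassium channel named after its values were seen, was at 15.2, 49.0 and 55.5 FPKM in CTX, 10.9, 13.7 and 14.5 in HBOT and 41.4, 40.3 and 34.3 in NC, and passed only without CTX 1 (log2 fold change -1.93, limma adjusted p = 0.0283; -1.36 and 0.713 with it, -1.40 and 0.841 without HBOT 2). The other 5 (Tlcd3b, Magohb, Rabl2, Angptl1 and Slc44a3) had log2 fold changes from -0.78 to -0.51, and from -0.60 to -0.48 without HBOT 2. All 24 genes kept their direction without HBOT 2, as the non-overlap in their choice required.

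The extracellular matrix lists were higher in HBOT as a group of genes, most clearly in HBOT 1 and HBOT 3. Of 83 matrix genes tested in the 4 lists (collagens, glycoproteins and proteoglycans, proteases and inhibitors, and crosslinking enzymes), 67 had a difference above 0 (80.7%, against 38.4% of all genes). The HBOT libraries lay wholly above CTX for 18 of them (21.7%, against 3.74% of all genes) and wholly below for 0 (6.39% of all genes). The median log2 fold change was 0.227, against -0.067 over all genes. Without HBOT 2, 73 of 83 were higher (88.0%, against 49.3%), 36 lay wholly above CTX (43.4%, against 9.18%), 0 lay wholly below, and the median was 0.305. An unadjusted p under 0.05 was reached by 14 of the 83, all higher, and by 21, all higher, without HBOT 2. The smallest limma adjusted p of the 83 was 0.555, and 0.255 without HBOT 2. Under median-of-ratios scaling of all libraries 74 were higher, with a median of 0.273.

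Libraries differed in how far they carried this pattern. Relative to the mean of the CTX libraries, the median over the 83 genes on the log2 scale was 0.355 in HBOT 1, -0.053 in HBOT 2 and 0.292 in HBOT 3. In CTX it was 0.041, 0.076 and -0.134, and in NC 0.152, 0.233 and 0.343. On the deposited scale HBOT 2 therefore did not carry the shift as a whole, while single matrix genes were far above CTX in it. Median-of-ratios scaling divides each library by a factor, 0.876 in HBOT 2 and 1.067, 1.027 and 0.999 in CTX. The medians per library were not computed after that scaling, which would raise HBOT 2 relative to CTX. Without HBOT 1 the median was 0.132, with 59 of 83 higher, and without HBOT 3 it was 0.182, with 58 higher. Without CTX 3 it was 0.169.

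**Figure D2:**
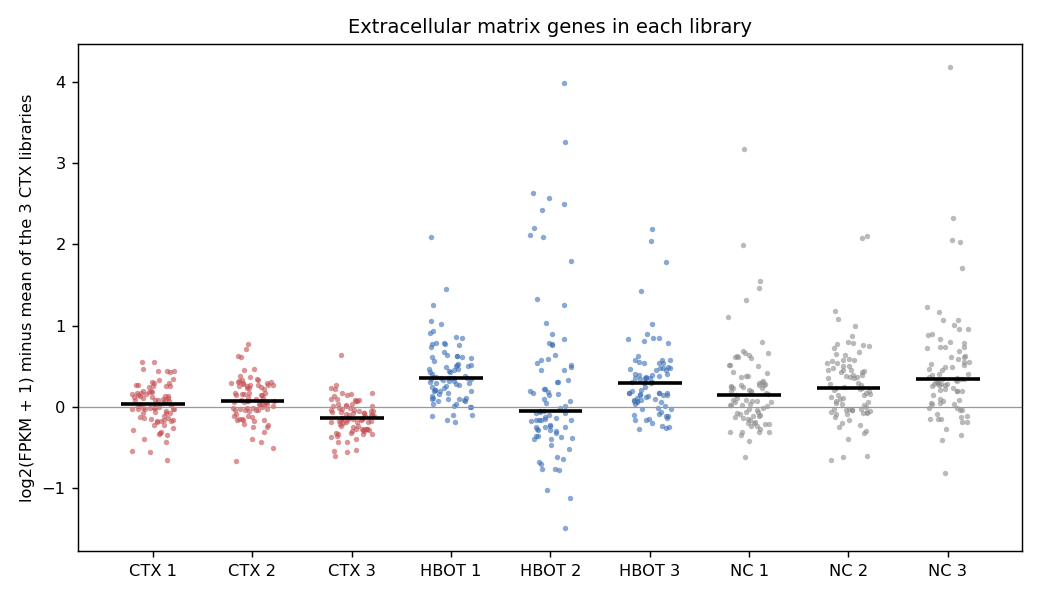
Each point is 1 of 83 matrix genes in 1 library, as log2(FPKM + 1) minus the mean of the 3 CTX libraries on the vertical axis; red is CTX, blue HBOT and grey NC, and black bars are medians over genes. The bars of HBOT 1 and HBOT 3 are at 0.355 and 0.292, that of HBOT 2 is at -0.053 with a wide spread of genes, and the NC bars are at 0.152 to 0.343.

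By role, the collagens come first. Col1a1, Col1a2 and Col3a1, the chains of types I and III, were named after their values were seen, as the most abundant fibrillar collagens. Col1a1 was at 70.9, 89.8 and 56.8 FPKM in CTX and 97.4, 63.5 and 105 in HBOT, Col1a2 at 200.3, 201 and 143 and 254, 148 and 229.8, and Col3a1 at 159, 185 and 149 and 207, 125 and 202. For each, HBOT 1 and HBOT 3 exceeded all CTX libraries and HBOT 2 did not. Log2 fold changes were 0.08 to 0.28 with all libraries and 0.32 to 0.50 without HBOT 2, and that of Col3a1 was -0.04 without HBOT 1 and -0.03 without HBOT 3. The minor fibrillar chains Col5a1, at 18.3, 19.8 and 12.6 FPKM in CTX and 25.8, 25.2 and 23.5 in HBOT, and Col5a2, at 9.09, 11.8 and 8.28 and 15.2, 12.3 and 13.5, were above CTX in all 3 HBOT libraries. So was the basement membrane collagen Col18a1, at 15.3, 20.5 and 14.5 FPKM in CTX and 26.4, 43.1 and 21.6 in HBOT. In the collagen list 14 of 18 genes were higher, 3 of them without overlap, and without HBOT 2 there were 16 and 8. Of all genes 3.74% lay wholly above CTX, and 9.18% without HBOT 2, when fewer libraries overlap less often.

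Of the 31 glycoproteins and proteoglycans, 26 were higher and 6 lay wholly above CTX, and without HBOT 2 there were 28 and 14. For this list and the next ones, the shares of all genes wholly above CTX are 3.74% and, without HBOT 2, 9.18%. Fn1 (ENSMUSG00000026193), fibronectin, was at 17.1, 19.7 and 21.6 FPKM in CTX, 41.4, 29.6 and 26.0 in HBOT and 26.4, 28.0 and 28.9 in NC (log2 fold change 0.68, SE 0.17, limma adjusted p = 0.713; 0.73 without HBOT 2). Postn, periostin, was at 2.21, 2.996 and 1.71 FPKM in CTX and 3.33, 3.68 and 7.81 in HBOT, highest in HBOT 3. Among proteases and inhibitors, 15 of 19 were higher and 6 did not overlap, and without HBOT 2 there were 15 and 8. Mmp14, a membrane-bound collagenase, was at 47.3, 45.9 and 35.7 FPKM in CTX and 77.4, 49.9 and 64.1 in HBOT, with its smallest excess in HBOT 2. Plat, tissue plasminogen activator, was at 15.9, 18.7 and 11.9 and 28.6, 86.0 and 27.5, and Mmp19 at 3.19, 5.03 and 4.55 and 5.71, 11.4 and 6.58, both highest in HBOT 2. Their log2 fold changes were 1.36 and 0.72 with all libraries and 0.84 and 0.46 without HBOT 2. Of 15 crosslinking genes, 12 were higher and 3 did not overlap, and without HBOT 2 there were 14 and 6. Plod2, a lysyl hydroxylase, was at 123, 68.7 and 109.8 FPKM in CTX and 136, 134 and 129 in HBOT, and the collagen chaperone Serpinh1 at 221, 251 and 225 and 268, 231 and 298. Lox was at 2.48, 6.22 and 2.35 FPKM in CTX and 6.41, 5.38 and 4.36 in HBOT, with CTX 2 among the HBOT values.

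Most of the TGF-beta pathway list other than its ligand overlapped between the groups. Of 23 genes tested, 16 were higher and Tgfb1 alone did not overlap (3.74% of all genes lay wholly above CTX). Without HBOT 2, 17 were higher, with 2 wholly above and 1 wholly below CTX (9.18% and 9.51% of all genes). The median log2 fold change was 0.10, or 0.05 without HBOT 2, against -0.067 and -0.0026 over all genes. Ltbp4, which anchors latent TGF-beta in the matrix, was at 60.1, 42.3 and 34.8 FPKM in CTX and 71.2, 57.7 and 51.7 in HBOT. The signal transducer Smad2 was at 11.3, 10.8 and 16.6 and 18.3, 15.1 and 13.5, and Smurf1, a ubiquitin ligase that limits the pathway, at 14.9, 16.4 and 14.6 and 16.2, 10.8 and 12.1. Each of these 3 overlapped between groups. Markers of another matrix-producing compartment, smooth muscle and pericytes, were higher for 12 of 16 genes, 2 without overlap, and for 15 without HBOT 2, 4 without overlap. Over all genes 3.74% lay wholly above CTX, and 9.18% without HBOT 2. Cnn1, a contractile calponin, was at 7.68, 5.76 and 7.76 FPKM in CTX and 11.1, 13.8 and 8.08 in HBOT, and Tagln, transgelin, at 82.8, 82.1 and 89.4 and 112, 195 and 82.2. The mean of this list relative to CTX was 0.41, 0.03 and -0.02 in the HBOT libraries, so HBOT 1 alone stood higher. The part of smooth muscle in the matrix genes was not tested.

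When HBOT 2 was left out, a further set of genes came to the top, led by Plekhg4. Plekhg4 (ENSMUSG00000014782), a guanine nucleotide exchange factor, was at 12.5, 6.79 and 7.67 FPKM in CTX and 53.8, 11.8 and 80.9 in HBOT, with NC at 44.4, 38.0 and 68.1. HBOT 1 and HBOT 3 were within or above the NC range, and HBOT 2 was just below the highest CTX library. The log2 fold change was 2.79 (SE 0.31, limma adjusted p = 0.126) without HBOT 2 and 1.99 (adjusted p = 0.713) with it. Lgr5 (ENSMUSG00000020140), a receptor for R-spondins that strengthens WNT signals, was at 5.82, 2.89 and 2.72 FPKM in CTX, 11.9, 3.45 and 16.0 in HBOT and 17.7, 19.1 and 19.5 in NC. HBOT 2 lay within the CTX range, and the log2 fold change was 1.68 without it and 1.10 with it. Porcn, the acyltransferase that makes WNT ligands fit for secretion, was at 4.98, 5.35 and 6.32 FPKM in CTX, 33.8, 2.66 and 14.4 in HBOT and 11.7, 11.3 and 11.01 in NC. HBOT 2 was below every CTX library for Porcn.

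Ak1, an adenylate kinase of muscle-like energy metabolism, was at 6.003, 4.12 and 3.91 FPKM in CTX, 16.7, 8.13 and 28.7 in HBOT and 14.5, 13.6 and 26.3 in NC. Sh3bgr was at 4.26, 3.28 and 3.36, 7.27, 4.75 and 8.68 and 9.36, 10.8 and 10.5 FPKM. For both genes HBOT 2 lay above all CTX libraries but below the other HBOT libraries. Dok1, an adaptor of tyrosine kinases, was at 8.05, 8.45 and 10.6 FPKM in CTX and 17.1, 5.32 and 18.1 in HBOT, and the ubiquitin ligase Wwp2 at 14.0, 13.4 and 13.0 and 21.1, 12.1 and 24.7. Nrep, a neuronal regeneration factor, was at 37.2, 28.6 and 26.9 FPKM in CTX and 53.6, 10.3 and 60.8 in HBOT. HBOT 2 was below every CTX library for Dok1, Wwp2 and Nrep. The 8 genes had limma adjusted p from 0.126 to 0.236 without HBOT 2 and from 0.713 to 0.957 with it.

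In the downward direction the 8 added genes had limma adjusted p of 0.530 to 0.624 without HBOT 2. Mlxipl, the glucose-responsive transcription factor ChREBP, was at 7.69, 12.7 and 11.6 FPKM in CTX, 5.57, 7.57 and 4.66 in HBOT and 11.2, 12.3 and 9.56 in NC. Bpifb4 was at 39.0, 37.6 and 72.7 FPKM in CTX, 19.4, 4.07 and 22.2 in HBOT and 36.8, 36.2 and 30.0 in NC, lowest in HBOT 2. Both had all 3 HBOT libraries below CTX. The same held for the other 6 (Qtrt1, Sh2d4a, Ankrd35, Cep85, Tincr and Cklf), whose log2 fold changes without HBOT 2 ran from -0.78 to -0.34. With HBOT 2 their differences ran from -1.47 to -0.32.

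**Figure D3:**
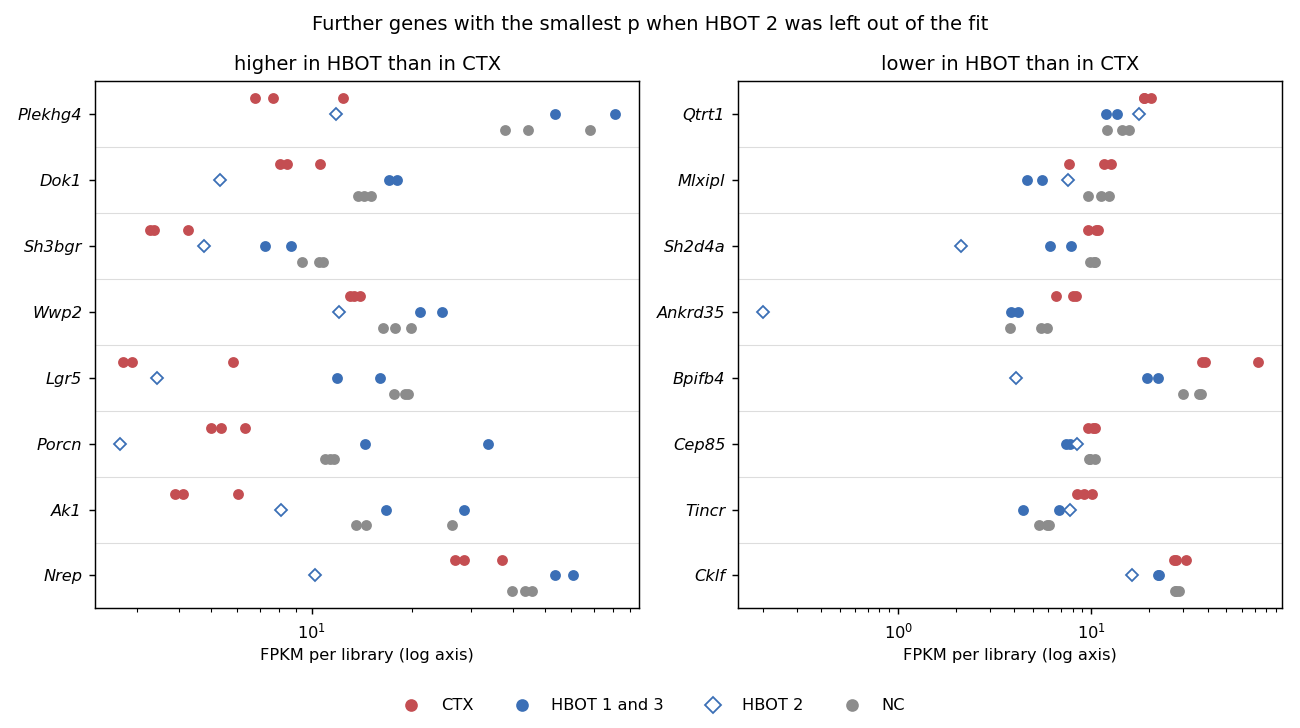
FPKM on a log axis in each library for the 8 further genes per direction with the smallest p once HBOT 2 was left out of the fit; red is CTX, blue HBOT 1 and 3, open diamonds HBOT 2 and grey NC. In the left panel the diamonds lie within the CTX range for Plekhg4 and Lgr5, below all CTX points for Dok1, Wwp2, Porcn and Nrep, and between the groups for Sh3bgr and Ak1.

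The WNT list as a whole gave 12 of 21 genes higher, and 13 without HBOT 2. 1 gene, Sfrp2, was tested only through HBOT and could not overlap. Of the other 20, 1 lay wholly above CTX (3.74% of all genes), and 4 without HBOT 2 (9.18% of all genes). Sfrp2, a secreted WNT antagonist, was at 0.543, 0.790 and 0.253 FPKM in CTX, 3.83, 8.29 and 1.46 in HBOT and 0.899, 0.716 and 0.867 in NC. All 3 HBOT libraries exceeded the NC libraries too, and since the filter chose the gene by its HBOT level no test is given. The median of the list was 0.05 with all libraries and 0.13 without HBOT 2.

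Inhibitors of the cyclin-dependent kinases differed in direction. Cdkn2b (ENSMUSG00000073802), which blocks CDK4 and CDK6, was at 4.59, 3.32 and 2.80 FPKM in CTX, 8.50, 11.9 and 29.7 in HBOT and 48.6, 28.8 and 39.4 in NC. HBOT 3 reached the lowest NC library and the other HBOT libraries lay between CTX and NC. The log2 fold change was 1.79 (SE 0.40, limma adjusted p = 0.713), and 1.92 (adjusted p = 0.540) without HBOT 2. Cdkn1a, the p21 inhibitor and a target of p53, was at 8.48, 10.7 and 7.12 FPKM in CTX, 22.3, 35.9 and 13.0 in HBOT and 15.1, 19.5 and 21.4 in NC, with log2 fold changes of 1.25 and, without HBOT 2, 0.91. Cdkn2a was at 0.625, 0.960 and 0.344 and 1.27, 1.26 and 1.98 FPKM, and was tested only through its HBOT level. Cdkn2c, named after its values were seen as the 1 inhibitor wholly below CTX, was at 14.2, 13.6 and 12.1 FPKM in CTX and 11.4, 5.97 and 11.7 in HBOT. Of the 6 inhibitors other than Cdkn2a, 2 lay wholly above and 1 wholly below CTX, with and without HBOT 2. Over all genes these shares were 3.74% and 6.39% with HBOT 2, and 9.18% and 9.51% without it. The RefSeq promoter window of Cdkn2b, 250 bases before to 50 after the start, is shown because it holds a palindromic cyclic AMP response element (CRE, TGACGTCA, in capitals), 46 bases before the start. The window is GRCm38.p6 chr4:89310983-89311282, minus strand, looked up by symbol, whereas the deposited values were made on GRCm39.
Cdkn2b: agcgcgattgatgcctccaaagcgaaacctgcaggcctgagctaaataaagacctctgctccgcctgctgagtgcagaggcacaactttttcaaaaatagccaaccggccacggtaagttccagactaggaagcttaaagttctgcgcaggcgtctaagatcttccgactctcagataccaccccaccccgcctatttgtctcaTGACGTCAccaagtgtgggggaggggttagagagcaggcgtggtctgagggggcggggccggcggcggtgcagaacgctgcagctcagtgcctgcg
The CRE letters occur in 3.19% of 10184 promoter windows of the genes tested, searched on both strands with the first listed window of each gene. A match is a description of the letters only.

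In the p53 response, 12 of 19 targets were higher, 3 of them wholly above CTX (3.74% of all genes did so), and without HBOT 2 14 and 4 (9.18% of all genes). Gadd45a, a stress sensor that slows the cell cycle, was at 26.0, 31.7 and 40.7 FPKM in CTX, 45.6, 49.0 and 91.1 in HBOT and 128, 99.2 and 123 in NC, and the death receptor Fas at 1.70, 1.74 and 1.49 and 2.65, 3.01 and 2.28 FPKM in CTX and HBOT. Perp, a membrane effector of p53, was at 9.60, 8.15 and 8.11 FPKM in CTX and 17.7, 18.2 and 9.24 in HBOT (0.69; 0.53 without HBOT 2). Of 27 genes for repair of crosslinks and alkylated bases, 7 were higher, with 1 wholly above and 5 wholly below CTX (6.39% of all genes lay below); without HBOT 2, 7 were higher, with 3 above and 8 below (9.51% of all genes). Ercc1, a subunit of a nuclease that unhooks crosslinks, was at 14.3, 14.9 and 19.5 FPKM in CTX and 23.8, 27.2 and 20.6 in HBOT. Mgmt, which removes alkyl groups from guanine, was at 3.78, 4.51 and 5.21 and 2.94, 2.06 and 3.46. Fanca, of the Fanconi core complex, was at 10.5, 7.03 and 7.39 and 6.12, 6.13 and 5.51, and Fancg, of the same complex, at 7.68, 7.89 and 7.55 and 5.39, 3.33 and 7.55. The median of the repair list was -0.19, and -0.09 without HBOT 2. Of 21 genes of the BCL2 family and apoptosis, 0 lay wholly above and 3 wholly below CTX (3.74% and 6.39% of all genes). Without HBOT 2 there were 1 and 3 (9.18% and 9.51% of all genes). Bax, a pore-forming death effector, was at 69.6, 66.4 and 68.2 FPKM in CTX and 69.1, 53.6 and 69.8 in HBOT, lower in HBOT 2 alone, with log2 fold changes of -0.09 and, without HBOT 2, 0.03.

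Proliferation genes depended on which libraries were compared. Of 23 DNA replication genes, 11 were higher with all libraries, 1 of them wholly above CTX (3.74% of all genes). Without HBOT 2, 1 was higher and 8 lay wholly below CTX (9.51% of all genes did). Pcna, the replication clamp, named after its values were seen, was at 82.7, 64.2 and 68.5 FPKM in CTX and 56.0, 129 and 59.0 in HBOT, so HBOT 2 was the highest of the 6 libraries and the other HBOT libraries the lowest (log2 fold change 0.08, and -0.31 without HBOT 2). Tyms, thymidylate synthase, was at 11.1, 9.81 and 9.15 FPKM in CTX and 7.76, 9.60 and 7.80 in HBOT. The list median was -0.01 with all libraries, 0.06 after median-of-ratios scaling and -0.23 without HBOT 2. Of 20 mitosis genes 3 were higher, and 1 without HBOT 2. Mki67, the proliferation marker Ki-67, was at 14.9, 11.5 and 9.91 FPKM in CTX and 11.1, 11.3 and 8.08 in HBOT. CTX 1, the library with Adipoq and Cidec, was the highest CTX library in both lists, at 0.30, -0.11 and -0.20 for replication and 0.31, -0.12 and -0.20 for mitosis, relative to the CTX mean on the log2 scale. Both lists were also refitted without CTX 1, and its part in the difference was not tested beyond that.

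In the circadian clock list, 7 of 16 genes were higher in HBOT, and 4 without HBOT 2. Wholly below CTX lay 5 of the 16 (6.39% of all genes) and wholly above 0, and without HBOT 2 6 (9.51% of all genes) and 0. Dbp (ENSMUSG00000059824), a transcription factor driven directly by the clock, was at 38.2, 71.2 and 86.6 FPKM in CTX, 31.8, 2.36 and 30.7 in HBOT and 40.5, 30.7 and 67.8 in NC. HBOT 1 and HBOT 3 sat just below the lowest CTX library and HBOT 2 far below it, with log2 fold changes of -2.05 (SE 0.81, limma adjusted p = 0.713) and, without HBOT 2, -0.96. Nr1d2, a REV-ERB repressor, was at 22.9, 28.5 and 24.1 FPKM in CTX and 22.4, 9.76 and 16.4 in HBOT, and its paralog Nr1d1 at 21.5, 46.5 and 49.2 and 23.1, 3.996 and 18.4, where HBOT 1 was above CTX 1 so that the groups overlapped (for Nr1d1 -1.50; -0.80 without HBOT 2). Bhlhe40, a repressor in the clock's feedback, was at 14.8, 19.8 and 14.9 FPKM in CTX, 17.4, 51.3 and 46.4 in HBOT and 40.4, 55.5 and 38.7 in NC, above CTX in HBOT 2 and HBOT 3 (1.04; 0.77 without HBOT 2). No source used here gives the hour at which tissue was taken, so time of day and group cannot be told apart.

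Interferon-inducible GTPases, which attack the vacuoles of intracellular pathogens, were lower in HBOT for 15 of 15 genes tested. Over all genes, 8086 of 13122 were lower. Of the 15, 0 had non-overlapping libraries, with or without HBOT 2. Wholly below CTX lay 6.39% of all genes, and 9.51% without HBOT 2. Igtp (ENSMUSG00000078853) was at 17.6, 56.6 and 23.98 FPKM in CTX, 17.5, 8.62 and 24.8 in HBOT and 8.403, 5.65 and 6.69 in NC. CTX 2 was the highest and HBOT 2 the lowest of the 6, while the remaining 4 libraries ranged from 17.5 to 24.8. Gbp4, a guanylate-binding protein, was at 8.95, 48.4 and 14.2 FPKM in CTX and 8.69, 2.24 and 9.52 in HBOT, and Tgtp1 at 12.2, 23.8 and 17.8 and 11.8, 6.24 and 15.5. Reads of Tgtp1 and of the Gbp family are uncertain because near-identical copies share them. The median log2 fold change was -0.62 with all libraries and -0.30 without HBOT 2, when 2 of 15 were higher. Relative to the CTX mean the list was at -0.62, 0.91 and -0.29 in CTX, -0.39, -1.37 and -0.25 in HBOT and -1.36, -1.61 and -1.40 in NC.

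Promoter windows of Igtp and Tgtp1 are shown because all 15 genes of this list were lower with all libraries, and 13 without HBOT 2. The windows also share the core letters of the interferon-stimulated response element (ISRE core). These letters are GAAA, then 2 bases of any kind, then GAAA, in capitals. Both are RefSeq windows of GRCm38.p6, Igtp at chr11:58199306-58199605 on the plus strand and Tgtp1 at chr11:48992197-48992496 on the minus strand.
Igtp: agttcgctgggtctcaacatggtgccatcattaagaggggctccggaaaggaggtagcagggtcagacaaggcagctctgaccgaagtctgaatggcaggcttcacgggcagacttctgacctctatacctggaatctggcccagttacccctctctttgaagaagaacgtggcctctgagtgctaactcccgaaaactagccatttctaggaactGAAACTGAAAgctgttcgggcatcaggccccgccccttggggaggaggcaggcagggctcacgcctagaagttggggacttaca
Tgtp1: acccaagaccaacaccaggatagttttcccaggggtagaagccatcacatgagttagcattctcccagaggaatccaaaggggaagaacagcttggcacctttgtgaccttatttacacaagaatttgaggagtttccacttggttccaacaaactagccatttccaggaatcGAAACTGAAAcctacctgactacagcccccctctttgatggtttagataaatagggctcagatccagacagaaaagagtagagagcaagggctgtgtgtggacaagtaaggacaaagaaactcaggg
The core begins 34 bases before the start in Igtp and 77 bases before it in Tgtp1. Of 10 windows matched to this list, 9 hold the core on either strand, against 3.11% of the 10184 windows of genes tested. Of 16 windows of type I interferon-stimulated genes 8 hold it, and of 19 windows of MHC class I genes 5.

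The lists of type I interferon and MHC genes, too, followed CTX 2 and HBOT 2. Of 25 type I interferon-stimulated genes 1 was higher, with a median of -0.33, and without HBOT 2 5 were higher, with a median of -0.10. Of 22 genes of MHC class I and peptide loading 3 were higher with all libraries and 12 without HBOT 2, the median moving from -0.30 to 0.003. Of 9 MHC class II genes, 2 and 3 were higher. HBOT 2 was the lowest and CTX 2 the highest of the 6 libraries in the mean of each of these 3 lists. Of the 13 neutrophil genes, the 6 that passed the filter were higher with and without HBOT 2, Il1b among them only through its HBOT level. The 7 below the filter did not all share this: the granule genes Ngp, at 0.751, 0.938 and 7.32 FPKM in CTX and 2.45, 0.610 and 0.170 in HBOT, and Camp, at 0.561, 0.313 and 2.14 and 0.304, 0.424 and 0, were highest in CTX 3. Csf3r, the receptor for the growth factor G-CSF, was at 1.46, 1.71 and 1.33 FPKM in CTX, 2.89, 3.34 and 2.54 in HBOT and 0.563, 0.877 and 0.400 in NC (log2 fold change 0.65, SE 0.16, limma adjusted p = 0.713; 0.57 without HBOT 2). S100a9, an abundant protein of neutrophil granulocytes, was at 3.63, 3.44 and 18.3 FPKM in CTX and 20.2, 14.9 and 5.80 in HBOT, so that CTX 3 lay among the HBOT values. Of 17 macrophage genes 10 were higher, and 16 without HBOT 2.

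Immediate early genes, which cells switch on within minutes of a signal, were higher for 19 of 20 genes (38.4% of all genes were), and for 17 without HBOT 2 (49.3%). Of the 19 other than Egr2, 5 lay wholly above CTX (3.74% of all genes), and the same 5 without HBOT 2 (9.18%). Jun was at 19.2, 14.8 and 14.4 FPKM in CTX, 22.2, 33.7 and 40.1 in HBOT and 38.9, 30.6 and 40.5 in NC, with log2 fold changes of 0.92 (SE 0.22, limma adjusted p = 0.713) and, without HBOT 2, 0.86. Zfp36, which destabilizes inflammatory mRNAs, was at 7.55, 8.25 and 9.49 and 14.2, 35.6 and 11.2 FPKM, and Egr2, tested only through its HBOT level, at 0.704, 0.780 and 0.390 and 2.30, 16.6 and 1.09. HBOT 2 was the highest library for Zfp36 and Egr2, and HBOT 3 for Jun. The list median was 0.80 with all libraries and 0.21 without HBOT 2. The mean of the list relative to CTX was 0.47, 2.08 and 0.01 in HBOT, so HBOT 3 did not carry it, and 0.97, 0.81 and 0.29 in NC.

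Genes of ovulation and the cumulus rested on HBOT 2. Of 21 listed, 10 were below the filter, either held at more than low levels by HBOT 2 alone or low everywhere. Named from these after their values were seen, the EGF-like ligand Ereg was at 0.964, 361 and 0.426 FPKM in HBOT and 0.254, 0.339 and 0.380 in CTX, and Sult1e1, which sulfates oestrogen, at 0, 223 and 0 and 0, 0 and 0. Of the 11 tested 9 were higher, with a median of 0.98 that was 0.16 without HBOT 2, when 8 were higher. Of the 10 other than Tnfaip6, 1 lay wholly above CTX (3.74% of all genes). Without HBOT 2, 1 lay wholly above and 1 wholly below (9.18% and 9.51% of all genes). Tnfaip6 (ENSMUSG00000053475), which links hyaluronan in the expanding cumulus, was at 0.454, 0.316 and 0.466 FPKM in CTX, 1.45, 188 and 1.60 in HBOT and 0.671, 1.65 and 0.499 in NC. HBOT 1 and HBOT 3 were above each CTX library by about 1 FPKM. The gene was tested only through its HBOT level, so its groups could not overlap and no test is given. Its RefSeq promoter window, GRCm38.p6 chr2:52037863-52038162 on the plus strand, is shown because it holds the letters that AP-1, the dimer of Jun and Fos proteins, is known to bind (TGANTCA, in capitals, 142 bases before the start).
Tnfaip6: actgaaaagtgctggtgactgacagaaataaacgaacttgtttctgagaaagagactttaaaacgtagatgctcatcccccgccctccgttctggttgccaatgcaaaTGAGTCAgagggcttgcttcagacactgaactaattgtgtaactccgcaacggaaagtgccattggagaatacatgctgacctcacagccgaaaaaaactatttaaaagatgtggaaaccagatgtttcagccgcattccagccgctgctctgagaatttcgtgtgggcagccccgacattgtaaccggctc
The AP-1 letters occur in 4.8% of the 10184 windows. Of 10 windows matched to the ovulation list 1 holds them, and of 17 windows of immediate early genes 0.

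**Figure D4:**
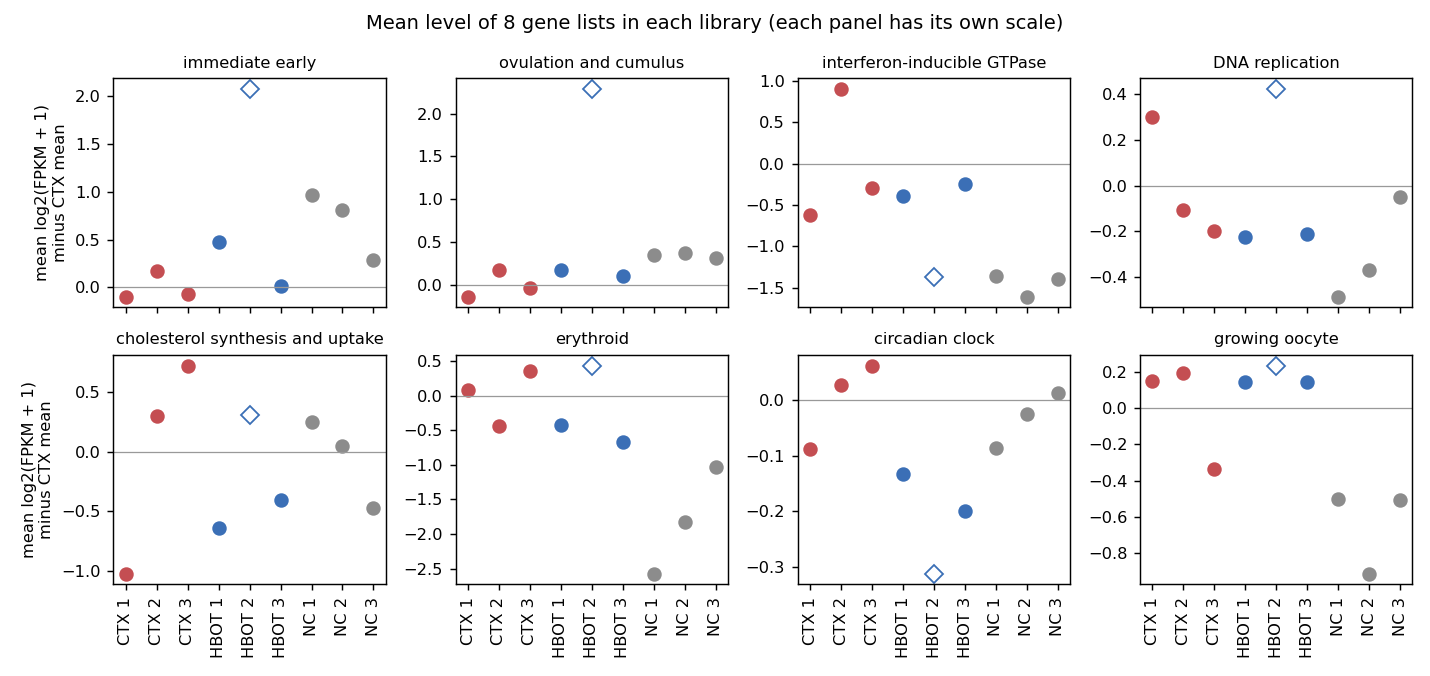
Mean of log2(FPKM + 1) over the tested genes of 8 lists in each library, minus the mean of the 3 CTX libraries, with a scale of its own in each panel; red is CTX, blue HBOT, open diamonds HBOT 2 and grey NC. HBOT 2 stands at 2.08 for immediate early genes, 2.29 for ovulation genes and -1.37 for interferon-inducible GTPases, and CTX 1 at -1.03 for cholesterol genes.

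Transcripts of growing oocytes were slightly higher in HBOT, at 23 of 24 genes and 22 without HBOT 2. Gdf9 was at 76.0, 76.1 and 51.3 FPKM in CTX, 68.9, 83.7 and 77.9 in HBOT and 43.6, 28.3 and 43.2 in NC. CTX 3 was the lowest of the 6 and the other two CTX libraries overlapped with HBOT, giving log2 fold changes of 0.20 (SE 0.21, limma adjusted p = 0.757) and, without HBOT 2, 0.13. Zp3, a protein of the egg coat, was at 59.0, 64.9 and 38.5 FPKM in CTX and 63.1, 69.9 and 59.3 in HBOT (0.27; 0.21 without HBOT 2). Nlrp5, the oocyte protein MATER, was at 20.4, 22.1 and 14.9 FPKM in CTX, 26.7, 29.9 and 24.7 in HBOT and 14.4, 10.8 and 12.7 in NC, without overlap between HBOT and CTX. The list had 2 genes wholly above CTX among 24 with all libraries (3.74% of all genes), and 2 without HBOT 2 (9.18% of all genes). The medians were 0.17 and, without HBOT 2, 0.13. Its mean in CTX was 0.15, 0.19 and -0.34, a wider range than the 0.14, 0.23 and 0.14 of HBOT, and -0.50, -0.91 and -0.51 in NC. Of 10 genes of primordial follicles and germ cells 8 were higher, and 9 without HBOT 2, 0 of them without overlap in either case. Ddx4, the germ cell helicase, was at 1.74, 2.22 and 1.42 FPKM in CTX and 2.71, 2.53 and 1.83 in HBOT, and Foxo3, which holds primordial follicles dormant, at 13.1, 12.2 and 10.8 and 13.8, 6.996 and 12.9 (-0.14, and 0.14 without HBOT 2, as log2 fold changes).

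Markers of somatic follicle cells and luteal cells were mixed in direction. Of 19 granulosa genes 10 were higher, with a median of 0.02, and without HBOT 2 14 with 0.07. Amh was at 414, 171 and 97.7 FPKM in CTX, 219, 312 and 179 in HBOT and 76.5, 73.2 and 128 in NC. Fshr, the receptor for follicle-stimulating hormone, was at 23.6, 9.68 and 17.8 and 23.7, 6.78 and 13.8. The theca enzyme Cyp17a1 was at 511, 12.3 and 300.1 FPKM in CTX and 698, 685 and 283 in HBOT, with CTX 2 far below the rest. Aromatase, Cyp19a1, was at 27.2, 2.37 and 18.9 and 55.3, 5.56 and 15.1, and the cholesterol carrier Star at 76.8, 338 and 542 and 58.1, 1877 and 376. Directions turned when single libraries were left out: the log2 fold change of Amh was 0.27 but -0.21 without CTX 3, and that of Cyp19a1 0.55 but -0.39 without CTX 2 and -0.27 without HBOT 1. For Fshr it was -0.27 and, without HBOT 2, 0.16. For Star it was 0.51 with all libraries, -0.70 without HBOT 2 and -0.31 without CTX 1. Of 14 theca and steroid synthesis genes 5 were higher, and 4 without HBOT 2. Of 12 corpus luteum genes 8 were higher, and 6 without HBOT 2. For Cyp17a1 the log2 fold change was 2.02 and, without HBOT 2, 1.81, and 0.39 without CTX 2. Standard errors were 0.48 for Amh, 1.22 for Cyp17a1 and 1.14 for Star.

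Cholesterol synthesis and blood transcripts differed between HBOT and CTX mainly once HBOT 2 was left out. Of 24 cholesterol genes 10 were higher with all libraries and 2 without HBOT 2, with medians of -0.17 and -0.47. Mvk, mevalonate kinase, was at 19.3, 35.5 and 33.2 FPKM in CTX and 19.1, 20.6 and 17.0 in HBOT, with CTX 1 among the HBOT values. The list mean was -1.03, 0.30 and 0.72 in CTX and -0.64, 0.31 and -0.41 in HBOT, so the CTX libraries spread more widely than the groups differed. Of 6 erythroid genes 1 was higher in both fits, and without HBOT 2 4 lay wholly below CTX (9.51% of all genes did). Hba-a1, an alpha globin with a near-identical copy, was at 258, 186 and 370.4 FPKM in CTX, 145, 319 and 145 in HBOT and 31.8, 44.1 and 89.3 in NC.

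Genes that answer to oxygen were mixed in direction. Of 28 targets and regulators of the hypoxia-inducible factors and glycolysis, 15 were higher, and 12 without HBOT 2. With all libraries 1 gene lay wholly above and 1 wholly below CTX (3.74% and 6.39% of all genes). Without HBOT 2 there were 2 and 3 (9.18% and 9.51% of all genes). The median was 0.02, and -0.05 without HBOT 2. Vegfa, the angiogenic ligand, was at 63.6, 86.4 and 102 FPKM in CTX, 54.6, 87.8 and 63.0 in HBOT and 105, 101 and 57.8 in NC. HBOT 1 and HBOT 3 were just below the lowest CTX library and HBOT 2 within the CTX range (-0.29; -0.49 without HBOT 2). Bnip3, a mitophagy receptor, was at 38.7, 57.9 and 61.5 FPKM in CTX and 37.4, 9.999 and 38.9 in HBOT (-1.04; -0.43 without HBOT 2), far lowest in HBOT 2. Pfkfb3, which speeds glycolysis, was at 5.57, 15.6 and 14.1 and 6.11, 6.98 and 5.32 (-0.74; -0.82 without HBOT 2), and the glycolytic enzyme Aldoa at 433, 669 and 636 and 454, 421 and 481 (-0.33; -0.28 without HBOT 2). CTX 1 lay among the HBOT values for both of these. Egln2, an oxygen-sensing prolyl hydroxylase, was at 38.2, 40.9 and 39.9 FPKM in CTX and 33.5, 31.0 and 37.1 in HBOT, wholly below CTX. Of 26 antioxidant genes 8 were higher, and 10 without HBOT 2. Hmox1, haem oxygenase 1, was at 24.3, 31.9 and 29.2 FPKM in CTX, 40.8, 27.0 and 42.5 in HBOT and 34.2, 34.9 and 40.2 in NC, above CTX in HBOT 1 and HBOT 3 only. Its log2 fold change was 0.34 (limma adjusted p = 0.713) and, without HBOT 2, 0.54 (adjusted p = 0.540). Sod2, the mitochondrial superoxide dismutase, was at 13.9, 28.8 and 30.6 FPKM in CTX and 19.1, 18.9 and 13.4 in HBOT (-0.43; -0.51 without HBOT 2). Gclc, which starts glutathione synthesis, was at 40.4, 20.4 and 31.1 and 34.8, 126 and 40.7 (0.91; 0.34 without HBOT 2), highest in HBOT 2. Prdx6, a peroxiredoxin, was at 70.3, 104 and 119.7 and 63.9, 53.2 and 64.6, wholly below CTX. Of 18 endothelial genes 3 were higher, and 10 without HBOT 2, with medians of -0.07 and 0.07. The medians of all genes were -0.067 and, without HBOT 2, -0.0026.

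**Figure D5:**
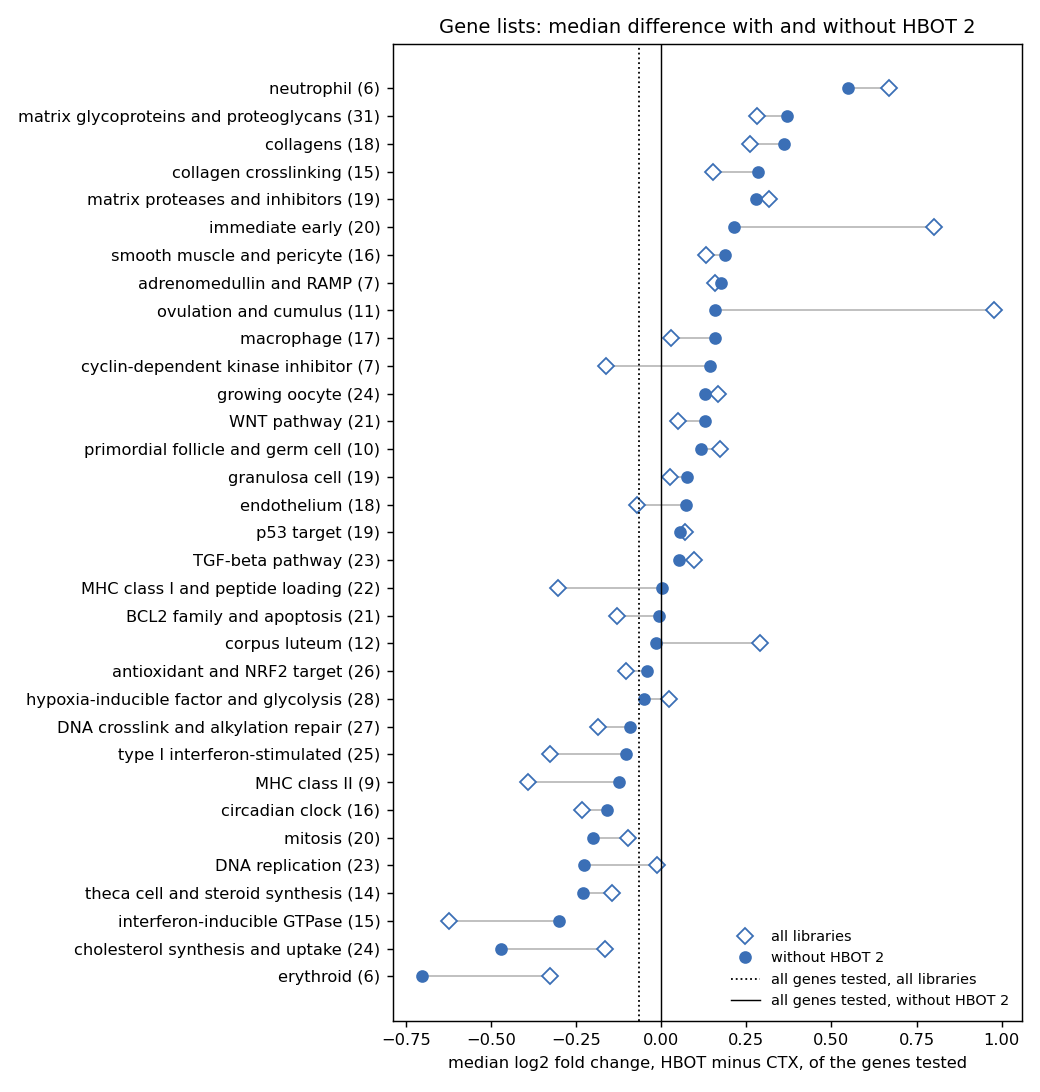
Median log2 fold change, HBOT minus CTX, of the tested genes of 33 lists (number of genes in brackets), with all libraries as open diamonds and without HBOT 2 as filled points; vertical lines are the medians of all genes tested. The 4 matrix lists lie at 0.15 to 0.32 with all libraries and at 0.28 to 0.37 without HBOT 2, while immediate early and ovulation genes move from 0.80 and 0.98 to 0.21 and 0.16.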

How the data were processed

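Per the labels' protocols, TRIzol RNA of mouse ovary was selected with oligo(dT) beads, built into libraries with a VAHTS mRNA-seq v3 kit and sequenced in pairs. Per the submitters' processing notes, fastp 0.23.4 and the build GRCm39 (mm39) were used; the aligner, counter and annotation were not given in the sources used. The authors deposited FPKM in 1 table, with 0 unmatched columns; 221 of the 13122 genes tested are assembled MSTRG loci. Whole reads could not be recovered, so depth is unknown and the spread between libraries is the measure of precision.

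Genes that reached 1 FPKM in 3 or more of the 6 HBOT and CTX libraries were taken as log2(FPKM + 1). A model of NC, CTX and HBOT over all 9 libraries was fitted with limma 3.58.1 (R 4.3.3; lmFit, contrasts.fit, eBayes with trend; 6 residual degrees of freedom), with two-sided p-values adjusted by Benjamini and Hochberg over all genes. An exact permutation test of 3 against 3 libraries cannot go below p = 0.1 and was not used. Named genes are the 12 per direction with the smallest p among genes with a mean of at least 2 FPKM, non-overlapping libraries and an established symbol, 8 more per direction by the same rule without HBOT replicate 2, up to 4 members per list with the smallest p, and a panel of 15 genes. The lists, 50 in all, 33 of them in the results and the others in the closing part, and the rules were chosen with earlier results of these data known, and lists are described by counts and medians with no set test. The alternatives were another pseudocount, filters, scalings, library weights, models and left-out libraries; 4 of them were chosen after seeing the data. The fit was also run on simulated independent values, with the same spread in every library of a gene. That simulation held no outlying library, so it cannot show how the fit handles HBOT replicate 2. Promoter windows are from RefSeq (GRCm38.p6), matched by symbol for 10184 genes. Figures were drawn with matplotlib in Python.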

Additional observations from a re-analysis of the deposited data

How the results depend on the processing

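Genes at an adjusted p under 0.05 numbered 0 with all libraries in limma and 0 to 1 when single libraries were left out: Kcnk3 without CTX 1, and MSTRG.28856.1 without CTX 2 and MSTRG.24116.10 without NC 3, both lower. There were 5 with library weights, 1 with no filter on low values (MSTRG.25118.1) and 2 without both HBOT 2 and CTX 1 (Kcnk3 lower, Lgr5 higher, adjusted p = 0.0258). Genes at an unadjusted p under 0.05 numbered 784, and 474 to 1542 when single libraries were left out, fewest without CTX 2 and most without HBOT 3. They numbered 448 with the HBOT and CTX libraries alone, 1350 with library weights and 1531 without both HBOT 2 and CTX 1. Genes without overlap numbered 1330, 2228 to 3123 with 1 library left out, and 5462 without both HBOT 2 and CTX 1, since fewer libraries overlap less often. Without HBOT 2 they numbered 2305 as TPM, 2569 after median-of-ratios and 2596 after quantile scaling; these 3 fits were chosen after seeing the data, as was that with library weights and without HBOT 2, which called 0 genes (1113 at an unadjusted p under 0.05).

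The spread of a list between libraries was taken with HBOT 2 included, so it is wide where HBOT 2 stands apart. By that measure immediate early genes, from 0.80 to 0.21 without HBOT 2, and ovulation genes, from 0.98 to 0.16, count as unmoved. List medians moved by less than this spread in 361 of 374 refits. Of the rest, the 4 matrix lists together ranged from 0.132 (without HBOT 1) to 0.305 with 1 library left out and the matrix glycoproteins from 0.112 (without HBOT 1) to 0.37. The kinase inhibitors ranged from -0.364 (without HBOT 1) to 0.144 (without HBOT 2), and antioxidant genes from -0.242 (without HBOT 3) to -0.044. Without both HBOT 2 and CTX 1 the medians were 0.332 for all matrix, 0.385 for glycoproteins, 0.193 for WNT (from -0.057 without CTX 3), 0.282 for kinase inhibitors, -0.006 for repair (from -0.247 without CTX 3) and -0.99 for cholesterol genes (to 0.124 without CTX 3). With a pseudocount of 0.1 the clock median was -0.327. The cause was not tested.

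Of 115 named genes, 105 kept their direction in all the planned refits, which the choice of many by non-overlap or small p favours. Left-out libraries turned Amh (-0.21 to 0.83), Col3a1 (-0.04 to 0.32), Nrep (-0.35 to 1.02), Cyp19a1 (-0.39 to 1.88), Calcrl (-0.26 to 0.04), Star (-0.70 to 1.79), Bax (-0.16 to 0.03), Pcna (-0.31 to 0.29), Foxo3 (-0.30 to 0.14) and Fshr (-0.67 to 0.16). In the 2-group fit without HBOT 2 the values were 0.03 for Bax, -0.31 for Pcna, 0.14 for Foxo3, 0.16 for Fshr and -0.70 for Star. With library weights they were 0.03 for Calcrl and Bax, -0.23 for Pcna, 0.15 for Foxo3, 0.43 for Fshr and -1.32 for Star. Without both HBOT 2 and CTX 1 they were 0.04 for Calcrl and Bax, -0.20 for Pcna, 0.20 for Foxo3, 0.43 for Fshr and -1.52 for Star.

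With the replicate number as a block, 0 genes passed (smallest adjusted p 0.0804) and 751 reached an unadjusted p under 0.05. Deviations of same-numbered HBOT and CTX libraries correlated, across genes, at 0.0662, 0.0459 and 0.101, and each correlated best with its own number, a hint from the data and not from the design, so the numbers were not taken as pairs. Depth is unknown, so how far it limits low transcripts such as Ramp1 or Sema3d cannot be given.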

Other observations

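Gene groups not yet described held no gene past an adjusted p of 0.05 in limma, as none of the 13122 genes passed with all libraries (784 at an unadjusted p under 0.05), and HBOT lay wholly above CTX for 3.74% and wholly below for 6.39% of all genes. Without HBOT 2 these shares were 9.18% and 9.51%. Genes of the integrated stress and unfolded protein response were higher in HBOT for 13 of 17, 3 of them wholly above CTX (Nupr1, Gadd45a and Dnajb9), and for 9 without HBOT 2, when 3 lay wholly above and 3 wholly below CTX. Iron handling and ferroptosis genes were higher for 8 of 14, with 1 wholly above and 1 wholly below CTX. Without HBOT 2, 7 were higher, with 3 wholly above and 1 wholly below. Transcripts encoded by mitochondrial DNA were higher for 12 of 13 (11 without HBOT 2), with a median log2 fold change of 0.14 (0.11 without HBOT 2). Nuclear genes of oxidative phosphorylation were higher for 2 of 21 (6 without HBOT 2), with -0.12 (-0.03). The medians of all genes were -0.067 (-0.0026). After median-of-ratios scaling of all libraries, the mitochondrial list was at 0.22, the nuclear list at -0.04 and all genes at 0.0018. Of 20 glutathione transferase and aldehyde dehydrogenase genes 7 were higher (9 without HBOT 2), and 3 had non-overlapping libraries: Gsta4, Gstk1 and Aldh1a3, named after their values were seen. Gsta4, which clears products of lipid peroxidation, was at 116, 51.7 and 108 FPKM in CTX and 146, 167 and 136 in HBOT. Gstk1, a peroxisomal and mitochondrial transferase, was at 19.8, 17.5 and 20.3 and 15.9, 11.3 and 14.7. Aldh1a3, which makes retinoic acid, was at 2.47, 2.09 and 2.13 and 2.01, 1.35 and 2.05. The log2 fold changes were 0.78, -0.44 and -0.21, or 0.70, -0.31 and -0.09 without HBOT 2.

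Lists of the PI3K pathway, the IGF pathway, heat shock proteins, cytosolic ribosomal proteins, complement, chemokines and adhesion, T and NK cells, surface epithelium and lymphatic endothelium had 0 to 1 genes wholly above and 0 to 1 wholly below CTX with all libraries, and 0 to 2 and 0 to 2 without HBOT 2. Of the B and plasma cell list 1 gene was tested, of oviduct epithelium 3 and of adipocytes 4, so these lists describe little.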
